A study of Mus musculus with 8 samples.

Results

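The genes described here are 10 receptors of itch-sensing and nonpeptidergic sensory neurons, taken by name as rows of the counts table, 10 of the 24421 genes it holds. They comprise 5 Mas-related G protein-coupled receptors (Mrgprd, Mrgpra3, Mrgprb4, Mrgprb5 and Mrgprx1), 4 other G protein-coupled receptors (Hrh1, F2rl1, Lpar3 and Htr1f) and the cytokine receptor subunit Osmr. The rule is a list of names and sets no limit on measured values, but earlier results of these data were known when the names were chosen. All 10 passed the filter on low counts that left 17328 genes for testing. RNA came from left dorsal root ganglia (DRG) of spinal levels L3 to L5 of wild-type (WT) C57BL/6J mice, whose age is 8 weeks in the labels and a wider range from that age in the methods, which also give male mice. Time point 0d was naive mice with no injection, and 1d, 3d and 30d were mice killed 1, 3 and 30 days after 20 µL of 1% carrageenan, a seaweed polysaccharide that inflames tissue, was given in the left hind paw. There were 2 libraries a time point, each from the pooled ganglia of 2 to 3 mice, so the spread between libraries is a spread between pools. The injected mice were compared with uninjected mice and not with mice given a vehicle, so carrageenan, the injection itself and the passing of time cannot be told apart.

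DRG hold the cell bodies of the sensory neurons that supply skin, muscle and viscera. Itch is carried by small unmyelinated neurons that bear receptors for histamine, proteases, lipids, serotonin, peptides and cytokines released in skin, and the Mrgpr family is expressed in separate sets of these neurons. Most of these receptors couple to phospholipase C and open channels such as Trpa1 and Trpv1, whereas Osmr signals through Janus kinases.

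The libraries held 44123208 to 73580338 counts assigned to genes. The samples carry the cell type label of DRG neurons, although whole ganglia were dissected. The 12 pan-neuronal marker genes summed to between 24260 and 26000 CPM (counts per 1000000 counts of the library, scaled by TMM) in every library. Markers of satellite glia summed to 2666 to 3210 CPM, of myelinating Schwann cells to 5961 to 11480 CPM, of macrophages to 114.2 to 136.6 CPM, of red blood cells to 140.6 to 515.3 CPM and of skeletal muscle to 21.84 to 140.2 CPM. The libraries thus held transcripts of neurons together with those of other cells of the ganglion. In such a mixture, fewer cells of a type and less RNA per cell cannot be told apart.

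All 5 Mrgpr genes lie on chromosome 7 in mm10. Mrgprd is at chr7:145314835-145324059 on the plus strand, away from the others. Mrgpra3 (chr7:47588950-47601372), Mrgprx1 (chr7:48020971-48027597), Mrgprb5 (chr7:48168017-48168985) and Mrgprb4 (chr7:48198213-48199178) are on the minus strand. The coding sequences of Mrgprb4 and Mrgprb5 were 85% identical over 974 aligned positions, whereas every other pair of the 5 was 56.7% to 65.3% identical. The start of both coding sequences is shown because it lets a reader judge whether short reads can separate the most alike pair. The stretch was taken from the GENCODE transcripts of GRCm38, which mm10 denotes, and is written 5′ to 3′ on the coding strand. It runs from the start codon over 150 aligned positions, and capitals mark the 25 positions at which the pair differ or at which one has a base and the other a gap.
Mrgprb4: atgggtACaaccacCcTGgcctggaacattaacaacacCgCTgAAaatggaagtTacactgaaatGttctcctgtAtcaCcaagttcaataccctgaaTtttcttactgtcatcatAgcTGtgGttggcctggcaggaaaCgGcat
Mrgprb5: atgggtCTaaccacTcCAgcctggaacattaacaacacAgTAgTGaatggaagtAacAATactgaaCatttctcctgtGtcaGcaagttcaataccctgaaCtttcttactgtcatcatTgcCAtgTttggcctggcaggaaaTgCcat
The longest run without a difference between their whole coding sequences was 57 bases. Of all 50-base words in the longest transcript, 1.45% of those of Mrgprb4 and 0.81% of those of Mrgprb5 also occurred in a transcript of another gene. The share was 7.14% for Mrgpra3, mostly shared with Mrgpra4, 5.84% for Mrgprx1, mostly shared with the gene Gm18348, and 0% for the other 6 genes. Reads that fit several places were not counted by the authors, so the counts of the genes with shared words leave out such reads. No exon base of the 10 genes overlapped an exon of another gene in the table. In the table Mrgprb4 and Mrgprb5 are single exons of 966 and 969 bases that begin at the start codon, so reads from their untranslated ends were not counted. Windows at annotated starts from RefSeq (GRCm38.p6, 250 bases before to 50 after the start) were at hand for 8 of the 10 genes. For Mrgprb4 and Mrgprb5 that start is the start codon, so their windows may not hold the promoter. The letters TGTGGT, the core that Runx factors bind, were found on neither strand in the 11 windows of these genes, and 16.8% of the 32851 windows of all genes hold them. Several of the 11 windows belong to Hrh1 alone, and whether the share differs from that of all genes was not tested.

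Per gene length, Mrgprd was the most abundant of the 10 and F2rl1 the least. Levels are given as RPKM, CPM divided by the length of the gene model in kilobases, as the median of 8 libraries. Mrgprd, the receptor for β-alanine that marks a large class of nonpeptidergic neurons, stood at 55.8 RPKM, higher than 92.1% of the tested genes. Lpar3, a receptor for lysophosphatidic acid, followed at 27.2 RPKM, and Mrgprx1, a peptide receptor of itch neurons, at 15.1 RPKM.

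Osmr, the oncostatin M receptor subunit that also pairs with Il31ra, lay at 9.95 RPKM. Mrgprb4, which marks fine skin afferents that respond to stroking, lay at 9.26 RPKM, and Mrgpra3, the chloroquine receptor, at 8.63 RPKM. These 3 formed a cluster, since the library ranges of Osmr and Mrgprb4 overlapped, as did those of Mrgprb4 and Mrgpra3. Mrgprb5 stood at 5.61 RPKM, and the serotonin receptor Htr1f at 2.63 RPKM. The histamine receptor Hrh1 stood at 0.848 RPKM. F2rl1, a receptor that proteases activate by cleavage, stood at 0.171 RPKM, lower than all but 7.27% of the tested genes. All other neighbours in this order were apart in every library. Mrgprd made up 55.7% to 61.6% of the summed RPKM of the 5 Mrgpr genes in each library.

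**Figure D1:**
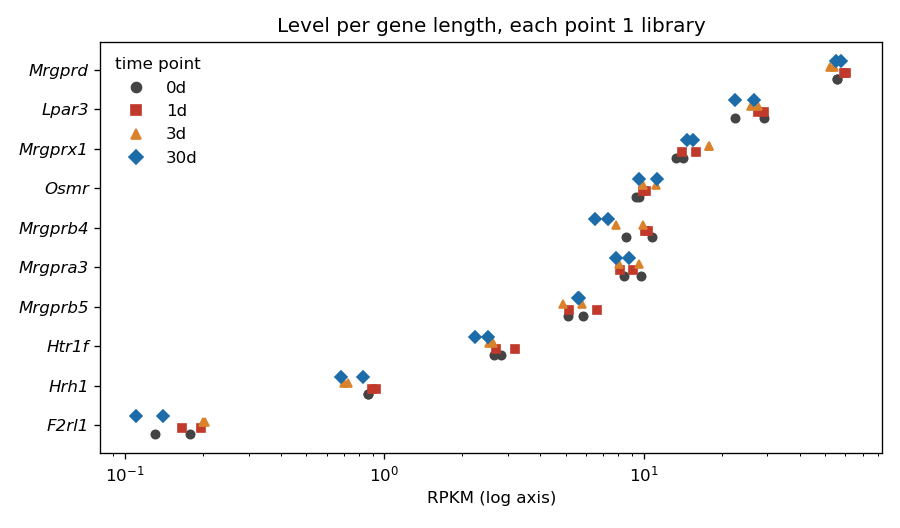
RPKM of each gene (log axis) in the 8 libraries, 1 point a library, with shape and colour for the time point and genes ordered by their median. Mrgprd is highest in every library, F2rl1 lowest, and Osmr, Mrgprb4 and Mrgpra3 lie side by side near 9 RPKM.

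The question of the time course was whether the transcripts of these receptors differ from those of naive mice in the days after carrageenan (1d and 3d) and a month later (30d). None of the 10 passed an adjusted p of 0.05 in edgeR's quasi-likelihood test in any of 5 comparisons. The smallest adjusted p of the 50 tests was 0.222, and 7 of the 50 had an unadjusted p under 0.05. The values with the smallest p were a higher Mrgprx1 at 3d, a lower Mrgprd at 3d than at 1d, and a lower Mrgprb4 at 30d. For 7 of the 10 genes the 95% intervals of all 3 comparisons with 0d lay within a 1.5-fold change in either direction; Mrgprb4, Hrh1 and F2rl1 were the others.

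Mrgprd was at 174 and 174 CPM at 0d, 185 and 189 CPM at 1d, 169 and 163 CPM at 3d, and 180 and 173 CPM at 30d. Both 1d libraries were the highest of the 8 and both 3d libraries the lowest, and the spread over all 8 was 4.75% of their mean. The log2 fold change was 0.10 at 1d (SE 0.043, edgeR adjusted p = 1), -0.07 at 3d (SE 0.0428, adjusted p = 0.957) and 0.02 at 30d (SE 0.0428, adjusted p = 0.906). From 1d to 3d it was -0.17 (SE 0.0429, 95% interval -0.26 to -0.08, adjusted p = 0.222). In a fit of the 1d and 3d libraries alone the same difference had an adjusted p of 0.0224, with 260 of 16791 genes called there against 50 in the fit of all time points.

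Mrgprx1 was at 16.7 and 15.7 CPM at 0d, 18.9 and 16.6 CPM at 1d, 21.0 and 21.1 CPM at 3d, and 18.4 and 17.3 CPM at 30d. Both 3d libraries lay above the other 6. The 3d mean was 1.3 times the 0d mean, with a log2 fold change of 0.37 (SE 0.0963, 95% interval 0.17 to 0.58). The edgeR adjusted p was 0.234. Against 1d the 3d value was higher by 0.25 on the log2 scale (SE 0.0968, adjusted p = 0.935). From 3d to 30d the log2 fold change was -0.24 (SE 0.0956, adjusted p = 0.304).

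Mrgprb4 was at 8.28 and 10.4 CPM at 0d, 9.77 and 10.0 CPM at 1d, 7.59 and 9.60 CPM at 3d, and 7.02 and 6.27 CPM at 30d. Both 30d libraries were below the other 6, while the 0d and the 3d libraries spread widely, with SDs of 16.3% and 16.6% of their means. Over all tested genes, however, the 30d libraries were the least alike pair. Their log2 CPM had a Pearson r of 0.979, against 0.99 to 0.993 for the pairs of the other time points. The log2 fold change at 30d was -0.50 against 0d (SE 0.157, 95% interval -0.83 to -0.16, edgeR adjusted p = 0.235). Against 3d it was -0.37 (SE 0.156, 95% interval -0.71 to -0.04, adjusted p = 0.326). Its close relative Mrgprb5 was at 4.95 and 5.66 CPM at 0d, 6.41 and 4.99 CPM at 1d, 4.75 and 5.61 CPM at 3d, and 5.47 and 5.40 CPM at 30d. The Mrgprb5 libraries of every time point overlapped with those of every other that was compared, and its log2 fold change at 30d against 0d was 0.03 (SE 0.177, 95% interval -0.34 to 0.41). Whether the 2 genes differ in their change was not tested.

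Mrgpra3 was at 10.9 and 12.7 CPM at 0d, 10.5 and 11.8 CPM at 1d, 12.5 and 10.4 CPM at 3d, and 11.4 and 10.1 CPM at 30d. The libraries of all compared time points overlapped. Its log2 fold changes against 0d were -0.08 (1d), -0.05 (3d) and -0.13 (30d), with SEs of 0.133 to 0.136, and the 3 intervals together ran from -0.42 to 0.24.

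**Figure D2:**
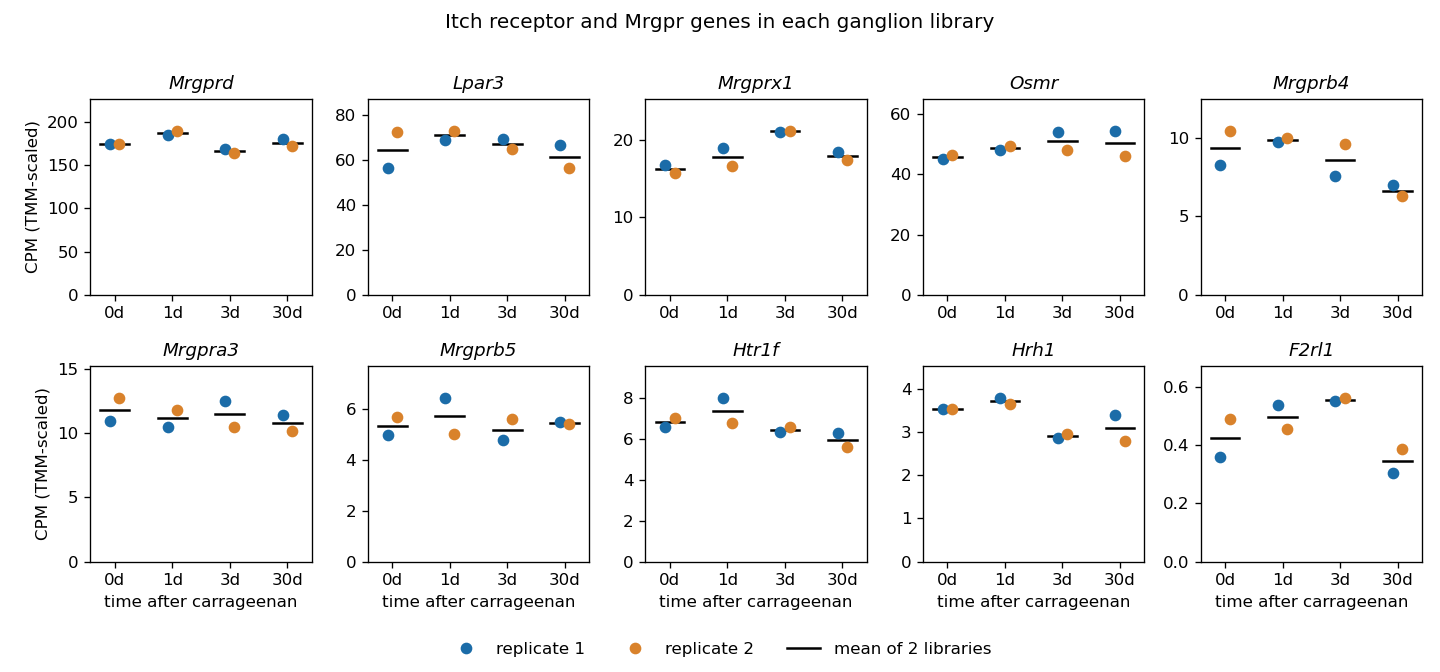
CPM scaled by TMM (linear axes from 0, one scale a gene) at 0d, 1d, 3d and 30d, with a point for each of the 2 libraries and a bar for their mean. Both Mrgprx1 libraries of 3d are near 21 CPM and above the other 6, and both Mrgprb4 libraries of 30d are the lowest of that gene.

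Of the receptors for mediators, Osmr was at 45.1 and 46.4 CPM at 0d, 48.1 and 49.4 CPM at 1d, 54.0 and 48.1 CPM at 3d, and 54.4 and 46.3 CPM at 30d. Its 1d and 3d libraries lay above the 0d libraries and 1 of the 30d libraries did not. The log2 fold change was 0.09 at 1d (SE 0.0796), 0.16 at 3d (SE 0.0786, 95% interval -0.01 to 0.33, edgeR adjusted p = 0.857) and 0.14 at 30d (SE 0.0788). Lpar3 was at 56.3 and 72.7 CPM at 0d, 69.1 and 72.8 CPM at 1d, 69.2 and 64.9 CPM at 3d, and 66.6 and 56.3 CPM at 30d. Its 0d libraries lay almost as far apart as the lowest and the highest of all 8, and its log2 fold changes against 0d were 0.14, 0.05 and -0.07 with SEs of 0.127 to 0.128.

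Htr1f was at 6.62 and 7.04 CPM at 0d, 8.00 and 6.77 CPM at 1d, 6.33 and 6.59 CPM at 3d, and 6.30 and 5.63 CPM at 30d. Its 3d and 30d libraries were below both 0d libraries, and the log2 fold change was -0.08 at 3d and -0.20 at 30d (SE 0.151 and 0.152, adjusted p = 0.999 and 0.627 in edgeR). Hrh1 was at 3.53 and 3.54 CPM at 0d, 3.78 and 3.65 CPM at 1d, 2.85 and 2.95 CPM at 3d, and 3.39 and 2.78 CPM at 30d. The 3d and 30d libraries were all below the 0d and 1d libraries. Its log2 fold change from 1d to 3d was -0.35 (SE 0.205, 95% interval -0.79 to 0.08, edgeR adjusted p = 1), and against 0d it was -0.28 at 3d and -0.20 at 30d. Hrh1 rested on 160 to 217 counts a library.

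F2rl1 was barely measured, with 18 to 41 counts a library. It was at 0.359 and 0.489 CPM at 0d, 0.539 and 0.456 CPM at 1d, 0.552 and 0.561 CPM at 3d, and 0.303 and 0.386 CPM at 30d. The 3d libraries were above the others, and the log2 fold change was 0.39 at 3d against 0d (SE 0.573, 95% interval -0.84 to 1.61) and -0.69 at 30d against 3d (SE 0.577, 95% interval -1.92 to 0.55). The interval at 3d against 0d holds changes of more than 1.5-fold in both directions, so a change of that size was not detectable there at this depth.

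**Figure D3:**
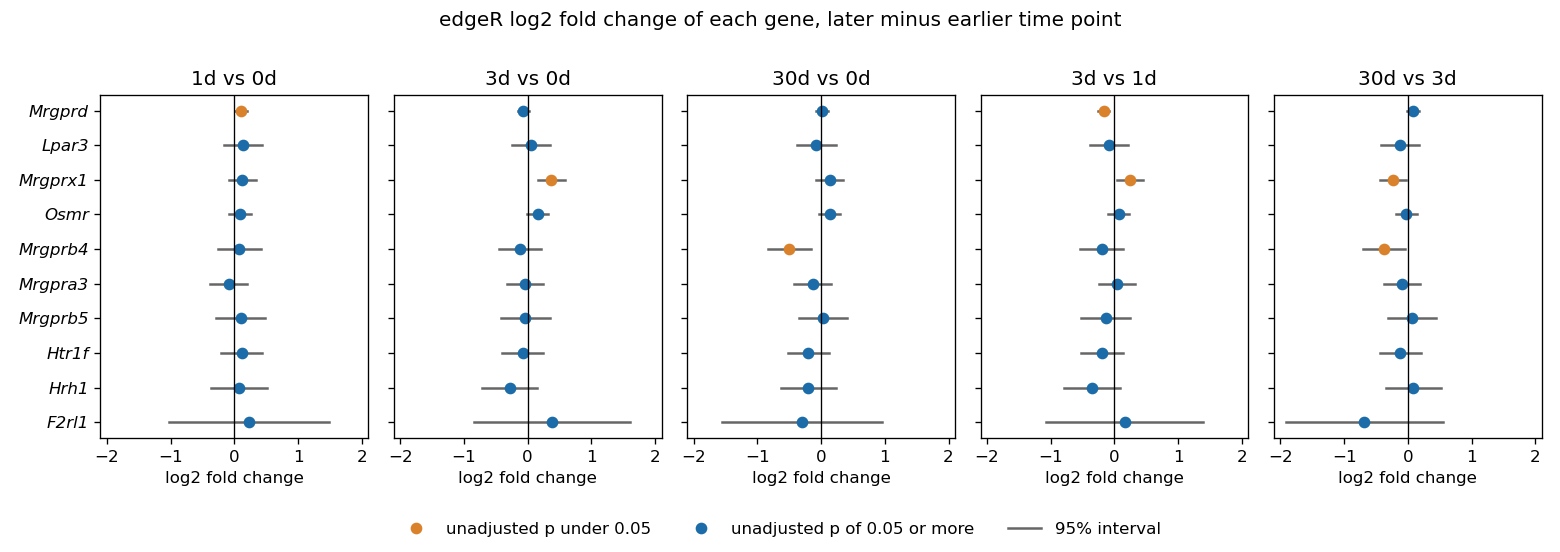
Log2 fold changes from edgeR (x axis, later minus earlier time point) with 95% intervals for the 10 genes in 5 comparisons, orange where the unadjusted p is under 0.05. Intervals are narrow for Mrgprd and widest for F2rl1, and the 7 orange points belong to Mrgprd, Mrgprx1 and Mrgprb4.

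The 10 genes were also counted together and read against the whole table. From 0d to 1d the fold change was above 0 for 9 and below 0 for Mrgpra3, with 0 called. Their median on the log2 scale was 0.104, and that over all tested genes was -0.0032. In the other comparisons the median of the 10 was -0.0399 from 0d to 3d, -0.103 from 0d to 30d, -0.11 from 1d to 3d and -0.103 from 3d to 30d, and that over all tested genes lay between -0.00213 and 0.00199. At 1d, 0 of 10 were called where 0.346% of all tested genes were, 1 (Mrgprd) had an unadjusted p under 0.05 where 4.47% of all did, and 3 had libraries that did not overlap with those of 0d, against 31.9% of all. At 3d, 4 were higher and 6 lower than at 0d. Of these 0 were called (0.219% of all genes), 1 had an unadjusted p under 0.05 (Mrgprx1; 5.94% of all) and 6 did not overlap with 0d (39.5% of all).

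At 30d, 4 were higher and 6 lower than at 0d, 0 were called (0.0231% of all genes), 1 had an unadjusted p under 0.05 (Mrgprb4; 12.3% of all) and 4 did not overlap (39.6% of all). From 1d to 3d, 4 were higher and 6 lower, 0 were called (0.289% of all), 2 had an unadjusted p under 0.05 (Mrgprd and Mrgprx1; 4.24% of all) and 6 did not overlap (37.6% of all). From 3d to 30d, 3 were higher and 7 lower, 0 were called (0.935% of all), 2 had an unadjusted p under 0.05 (Mrgprb4 and Mrgprx1; 13% of all) and 5 did not overlap (46.4% of all). DESeq2 and limma-voom also called 0 of the 10 in all 5 comparisons. The comparisons with 0d share the 0d libraries and those with 3d share the 3d libraries, so they are not independent of each other. With 2 libraries against 2, the smallest p an exact two-sided permutation test of a single gene can give is 0.333.

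Markers of other cells differed between the same time points. From 0d to 1d 7 of 8 Schwann myelin markers were lower (median log2 fold change -0.188), as were 6 of 8 satellite glia markers (-0.0997). All 5 red blood cell markers were higher there (0.335). From 1d to 3d all 8 Schwann myelin markers (0.189) and 7 of 8 satellite glia markers (0.133) were higher. All 5 red blood cell markers were lower (-0.535), and 0 of these lists were called in either comparison. At 30d all 5 red blood cell markers were higher than at 0d (sums of 276.4 to 515.3 against 140.6 to 282.3 CPM) and all 8 Schwann myelin markers lower (5961 to 8314 against 8545 to 11480 CPM), with 0 called in either list. The red cell list includes Hba-a1 and Hba-a2, whose values were the same in every library. Its counts and sums thus hold the same values more than once. Of 8 satellite glia markers 7 were lower at 30d, and Apoe, a lipid carrier of glia, was called (log2 fold change -0.28, edgeR adjusted p = 0.0322). From 3d to 30d all 8 Schwann myelin markers were lower (median log2 fold change -0.309, 0 called), all 5 red blood cell markers higher (median 1.09, 0 called) and 7 of 8 satellite glia markers lower (median -0.216), with Apoe called (-0.23, adjusted p = 0.0128). The pan-neuronal sum was 24260 to 24880 CPM at 30d and 25400 to 26000 CPM at 0d. All 8 muscle markers were lower than at 0d at 1d, 3d and 30d, with sums of 73.3 to 140.2 CPM at 0d, 30.62 to 65.21 CPM at 1d, 66.39 to 69.23 CPM at 3d and 21.84 to 113.3 CPM at 30d, and Myh1, a myosin of fast fibres, was called at 1d (-1.47, adjusted p = 0.0324) and at 3d (-1.61, adjusted p = 0.0237), and it was higher at 30d than at 3d (1.35, adjusted p = 0.0292). In that last comparison 3 of the 8 muscle markers were higher and 5 lower, with a median log2 fold change of -0.0303. The part of these cells in the values of the 10 genes and of the other lists was not tested.

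Within neurons, the 12 markers of the Mrgprd class of nonpeptidergic neurons summed to 3310 to 3591 CPM at 0d, 3573 to 3608 CPM at 1d, 3528 to 3572 CPM at 3d and 3176 to 3469 CPM at 30d. From 0d to 1d the fold change was above 0 for 11 and below for 1 (median 0.05 on the log2 scale), and 0 were called. Ret, the receptor of glial-derived growth factors, was the 1 gene of that list to pass the test, from 3d to 30d (-0.22, SE 0.0482, edgeR adjusted p = 0.0477). There 4 of the 12 were higher and 8 lower (median -0.0217), and 0.935% of all tested genes were called. Over the fits without 1 library the change of Ret ran from -0.30 to -0.15, and most of the alternatives described below lost the call. The 11 markers of the other nonpeptidergic itch neurons summed to 1374 to 1402 CPM over all libraries and 0 were called. Jak1 alone made up 460 to 504 CPM of that sum, while Sst lay at 4.36 to 5.89 CPM. The sum thus says little of the scarce markers, and Plxnc1 is both in this list and in that of the Mrgprd class. Gap43, a protein of growing axons, was the 1 pan-neuronal marker called, lower at 30d than at 3d (-0.26, adjusted p = 0.0213), where 3 of the 12 were higher and 9 lower (median -0.0546) and 0.935% of all tested genes were called. Among macrophage markers Cx3cr1, the fractalkine receptor, was lower at 3d than at 0d (-1.02, adjusted p = 0.00794) and than at 1d (-0.75, adjusted p = 0.0476). From 0d to 3d 5 of 10 macrophage markers were higher and 5 lower (median log2 fold change -0.00204, sums of 114.2 to 132.9 and 121.3 to 124 CPM). From 1d to 3d 2 were higher and 8 lower (median -0.185, sums of 134.6 to 136.6 and 121.3 to 124 CPM). Among fibroblast markers Lum, a matrix proteoglycan, was lower at 1d than at 0d (-0.49, adjusted p = 0.0326). Over the fits without 1 library that change ran from -0.64 to -0.33. Of the 7 fibroblast markers 1 was higher and 6 lower at 1d (median -0.285), with sums of 1296 to 1919 CPM at 0d and 1290 to 1336 CPM at 1d. Where no marker of a list was called, those with the smallest p were, from 3d to 30d, Nts (-0.44, adjusted p = 0.353) and Cysltr2 (-0.33, adjusted p = 0.392) of the other itch neurons, Ncmap (-0.44, adjusted p = 0.0728) of Schwann cells and Hba-a1 and Hba-a2 of red cells (both 1.09, adjusted p = 0.424). Hba-a1 and Hba-a2 carried the same values in every library. For mast cells they were Cma1 and Tpsb2, from 1d to 3d (-1.04, adjusted p = 0.339, and -0.49, adjusted p = 1), while 4 of the 8 tested mast cell markers were higher and 4 lower in that comparison (median -0.0922). Of these 8, 3 were higher and 5 lower from 0d to 3d (median -0.352). All 8 were higher from 3d to 30d (median 0.414), and 0 were called in either. Their sum lay at 107.6 to 109.1 CPM at 3d and 113.1 to 115.4 CPM at 30d. Cma1 and Tpsb2 made up little of that sum, with means of 1.58 and 3.08 CPM at 3d and 3.10 and 4.28 CPM at 30d. For endothelium they were Cdh5 and Flt1, from 0d to 1d (both -0.20, adjusted p = 1).

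Of 16 further listed genes of the Mrgpr family, 15 were found by name (Mrgprb13 was not analysed here) and 11 were tested, whereas Mrgpra6, Mrgprb3, Mrgprb8 and Mrgprg were under the filter. From 3d to 30d 8 of the 11 were lower and 3 higher, with a median log2 fold change of -0.275 against 0.000481 over all tested genes. From 0d to 30d 8 were also lower and 3 higher (median -0.315), with 0 called. The median genes were Mas1 (-0.275, SE 0.55) and Mrgprh (-0.315, SE 0.777). Mas1, Mrgprh, Mrgpra1, Mrgpra4, Mrgpra9, Mrgprb1 and Mrgprb2 had at most 71 counts a library, so these medians rest on few counts. The 1 call in 11, against 0.935% of all tested genes, was Mrgpra2b from 3d to 30d. It was at 4.93 and 5.62 CPM at 0d, 6.04 and 5.56 CPM at 1d, 6.56 and 5.85 CPM at 3d, and 3.69 and 2.76 CPM at 30d. Both 30d libraries were below the other 6, and the log2 fold change was -0.95 from 3d to 30d (SE 0.185, edgeR adjusted p = 0.0262) and -0.72 from 0d to 30d (SE 0.187, adjusted p = 0.156). The value is uncertain, since 85.3% of the 50-base words of Mrgpra2b also occur in Mrgpra2a. Without 1 library of 3d or without the second 30d library the adjusted p rose above 0.05, up to 0.427, and the call was also lost when only the compared time points entered the fit. Mrgprb2, the receptor of connective tissue mast cells, had 1 to 21 counts a library. Mrgprx2, a tested family gene outside the list that was added after its values were seen, had 2 to 25 counts a library. It was at 0.0567 and 0.0815 CPM at 0d, 0.0432 and 0.0684 CPM at 1d, 0.153 and 0.164 CPM at 3d, and 0.236 and 0.357 CPM at 30d. Both 30d libraries were above the other 6, opposite to most of the list, with a log2 fold change of 2.06 against 0d (SE 0.937, edgeR adjusted p = 0.394) and 0.90 against 3d (SE 0.839, adjusted p = 0.695).

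The 27 other receptors for itch mediators, among them those for cytokines, serotonin, sphingosine phosphate and kinins, had 24 tested genes, and 0 were called in any comparison. From 3d to 30d, 15 were lower and 9 higher, with a median log2 fold change of -0.131 against 0.000481 over all tested genes. An unadjusted p under 0.05 was seen for 5 of the 24, against 13% of all tested genes, and 0 of the 24 were called, against 0.935% of all. The 2 with the smallest p were F2rl2, a protease-activated receptor relative (from 106 to 90.6 CPM, log2 fold change -0.23, SE 0.0536, edgeR adjusted p = 0.0603), and S1pr3, a sphingosine phosphate receptor (from 186 to 157 CPM, -0.25, SE 0.0597, adjusted p = 0.0815).

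The 21 genes of itch transmission and its effectors had 20 tested, since Grp was under the filter. At 3d against 0d 1 of the 20 was called (0.219% of all tested genes) and at 30d against 3d 3 of the 20 (0.935% of all), with median log2 fold changes of 0.0707 and -0.0452, and 0 were called in the other comparisons. Whether the lists differ in their share of calls was not tested. Calca, which encodes the peptide CGRP, was at 798 and 892 CPM at 0d, 864 and 933 CPM at 1d, 1039 and 1076 CPM at 3d, and 791 and 784 CPM at 30d. Both 3d libraries were above the other 6. Calca was higher at 3d than at 0d (log2 fold change 0.32, SE 0.0518, edgeR adjusted p = 0.0237) and lower at 30d than at 3d (-0.43, SE 0.0518, adjusted p = 0.00201). The first call was lost without the first 0d library or without either 3d library (adjusted p up to 0.453) and without robust estimation, and the second held in all 18 alternatives (adjusted p up to 0.043).

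Trpa1, the irritant channel that Mrgpr signals open, was at 57.1 and 58.8 CPM at 0d, 63.2 and 65.3 CPM at 1d, 69.2 and 69.1 CPM at 3d, and 54.4 and 52.9 CPM at 30d. Its 30d libraries were the lowest and its 3d libraries the highest of the 8. It fell by 0.37 on the log2 scale from 3d to 30d (SE 0.054, edgeR adjusted p = 0.00491), and against 0d the 3d value was 0.26 (adjusted p = 0.0981). Tac1, which encodes substance P, had a mean of 218 CPM at 3d and 179 CPM at 30d (-0.28, SE 0.0474, adjusted p = 0.011). The Trpa1 and Tac1 calls were lost without either 3d library (adjusted p up to 0.129 and 0.24).

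**Figure D4:**
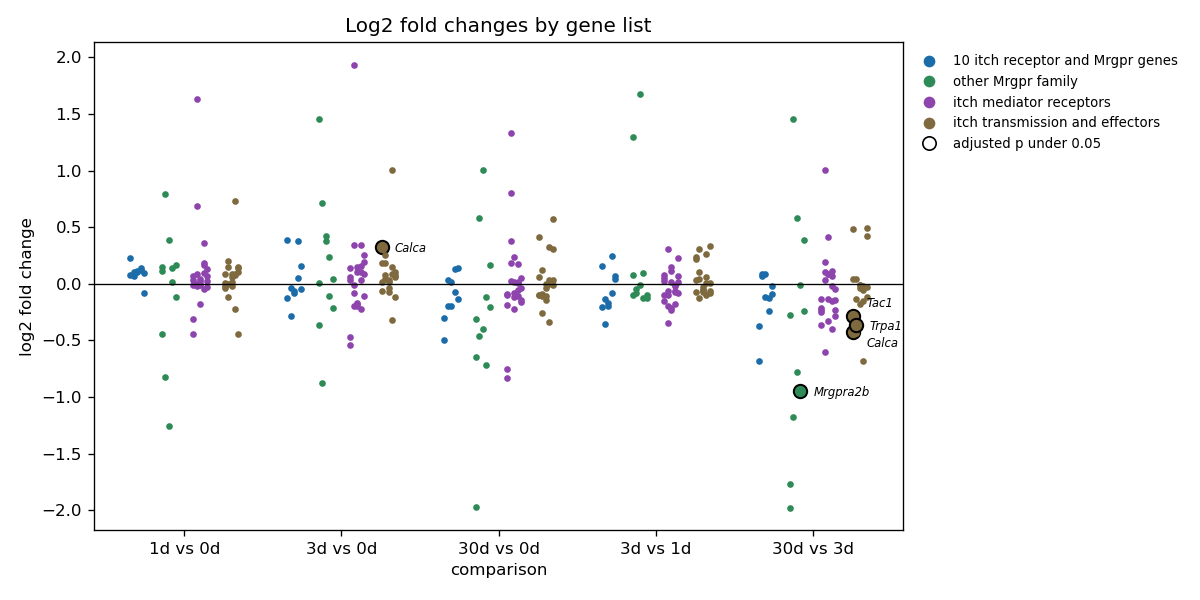
Log2 fold changes (y axis) of the 10 genes and of the tested genes of 3 further lists in 5 comparisons (x axis), 1 point a gene, with a black outline and a name where the edgeR adjusted p is under 0.05. The named points are Calca at 3d against 0d, and Mrgpra2b, Calca, Trpa1 and Tac1 at 30d against 3d, and no point of the 10 genes is outlined.

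The genes whose log2 CPM ran most like each of the 10 over the 8 libraries were listed among tested genes with a mean of at least 5 CPM. All 8 libraries enter each value, so it also holds differences between libraries of 1 time point. For Mrgprd they were Zfp772, Cnpy3 and Ifi47 (Pearson r 0.964, 0.962 and 0.948), and for Mrgprx1 Aph1a, Akap6 and Xpnpep1 (0.958, 0.958 and 0.95). For Mrgprb4 they were Tmod1, Smim7 and Pex3 (0.98, 0.977 and 0.975), for Mrgprb5 Slc36a4, Ranbp10 and 9430037G07Rik (0.927, 0.898 and 0.892), and for Mrgpra3 Dscr3, Diras1 and Gdap1l1 (0.96, 0.946 and 0.94). For Lpar3 they were Sesn2, Kcnf1 and Tmem233 (0.983, 0.971 and 0.967), for Osmr Raver1, Slc22a18 and Anxa1 (0.973, 0.938 and 0.926), for Hrh1 Ide, Pex2 and Zfpl1 (0.933, 0.928 and 0.924), for F2rl1 Becn1, Gdf11 and Slitrk5 (0.967, 0.964 and 0.96), and for Htr1f Exoc6b, Ppie and Ugt1a6b (0.973, 0.962 and 0.952). These are the highest of 12079 or 12080 values each over n = 8 libraries, and none of the 8 of the 10 genes that reached that mean was among the 3 most alike genes of another; Hrh1 and F2rl1 were under it and could not be listed.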

How the data were processed

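RNA from pooled L3 to L5 ganglia of 4 time points, with 2 libraries each, was made into TruSeq libraries and sequenced on an Illumina HiSeq instrument. The authors deposited 1 table of counts per gene, without normalization. The submitters' processing notes name cutadapt 2.10, STAR 2.7.5a, featureCounts 2.0.1 and mm10; per the file header and the methods, read pairs were counted on UCSC genes without regard to strand, reads that overlap several genes counted for each, and reads with several alignments not counted. Antisense transcripts thus cannot be told apart.

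Columns were matched to samples by name. R 4.3.3 with edgeR 4.0.16 was used. Genes were filtered with filterByExpr (7093 removed, at most 0.012% of any library's counts), scaled by TMM (factors 0.993 to 1.01) and tested in 1 robust quasi-likelihood fit over all libraries, with Benjamini-Hochberg adjustment over 17328 genes and a threshold of 0.05. CPM use TMM-scaled libraries and RPKM the table's gene lengths. Intervals are 95%, and SEs come from the fit. Total counts of 44123208 to 73580338 limit low genes such as F2rl1. Alternatives used DESeq2 1.42.0, limma 3.58.1, other scalings, filters and samples. The scripts were tested on simulated data. The 10 genes and the gene lists were chosen with earlier results of these data known. All 10 genes are named; of other lists, genes past the threshold in any comparison, or the 2 with the smallest p where none passed (1 such gene is not reported here). The alike genes are the 3 with the highest Pearson r. The alternatives for genes of other lists were added after the data were seen. No protein sequence was used here.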

Additional observations from a re-analysis of the deposited data

How the results depend on the processing

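The 18 alternatives were 10 other settings and 8 fits that each left out 1 library. Each left the count of the 10 genes past the threshold at 0 in every comparison with 1 exception. With the compared time points fitted alone, 1 gene (Mrgprd, 3d against 1d, -0.17, adjusted p = 0.0224) passed; fewer libraries and genes enter that fit, and the cause was not tested. The 10 other settings turned no direction. F2rl1 was not tested under a filter of 1 CPM in 2 libraries. Leaving out 1 library leaves a time point with a lone sample, whose spread is assumed to be like that of the other time points, and it turned 25 of 400 values, none of them called.

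Over the fits without 1 library, these log2 fold changes crossed 0. At 1d against 0d they ran from -0.19 to 0.028 for Mrgpra3 and from -0.075 to 0.26 for Mrgprb4. Those of Mrgprb5 ran from -0.089 to 0.27, of Lpar3 from -0.032 to 0.33 and of Htr1f from -0.013 to 0.23. At 3d against 0d they ran from -0.18 to 0.079 for Mrgpra3, from -0.30 to 0.056 for Mrgprb4, from -0.16 to 0.081 for Mrgprb5 and from -0.12 to 0.25 for Lpar3. At 30d against 0d they ran from -0.015 to 0.045 for Mrgprd, from -0.057 to 0.13 for Mrgprb5 and from -0.24 to 0.12 for Lpar3. At 3d against 1d they ran from -0.095 to 0.16 for Mrgpra3, from -0.31 to 0.055 for Mrgprb5 and from -0.019 to 0.15 for Osmr. At 30d against 3d they ran from -0.21 to 0.045 for Mrgpra3, from -0.046 to 0.19 for Mrgprb5, from -0.062 to 0.22 for Hrh1 and from -0.14 to 0.091 for Osmr. Of the 25 turns, 9 came without a 0d library and the rest without a library of 1d, 3d or 30d. Mrgprx1 at 3d against 0d stayed between 0.33 and 0.42 and Mrgprb4 at 30d against 0d between -0.65 and -0.32. Other values kept their direction but also moved widely. At 30d against 0d Osmr ran from 0.014 to 0.25 and Hrh1 from -0.35 to -0.063. F2rl1 ran from 0.19 to 0.63 at 3d against 0d, and Mrgprb4 from -0.53 to -0.19 at 30d against 3d.

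Libraries with the same replicate number did not deviate together (r -0.0144 to 0.0438), so the numbers were not taken to pair samples. With the replicate number as a block, 0 of the 10 genes were called, and Mrgprx1 at 3d had a log2 fold change of 0.37 (adjusted p = 0.153); over all genes the block called 69 at 30d against 0d in place of 4, and 77 at 3d against 1d in place of 50.

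The count of all genes called, which sets the background shares, moved by over 1.5 times in several settings. Without a low count filter it was 95, 89, 177, 99 and 358 (in order the comparisons of 1d, 3d and 30d with 0d, of 3d with 1d and of 30d with 3d) against 60, 38, 4, 50 and 162, and with DESeq2 it was 110, 109, 184, 110 and 378. With the compared time points alone it was 121 at 3d, 0 at 30d, 260 at 3d against 1d and 273 at 30d against 3d. Without robust estimation it was 20, 0 and 92 at 3d, 30d and 30d against 3d. limma-voom gave 25 at 3d and 2 at 30d. Without 1 library it ran from 26 to 111, from 1 to 121, from 1 to 202, from 5 to 117 and from 12 to 525.

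Of the 15 calls of other lists, that of Calca from 3d to 30d held in all 18 alternatives. The other 14 were each lost both without the first and without the second 3d library. Ret was called in 7 of 18 alternatives, Lum and Cx3cr1 (3d against 1d) in 8, and Myh1 at 1d in 9.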
